A study of Mus musculus with 5 samples.

Results

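NK cell depletion was examined in the immune cells of 5555 melanomas that lack Ptgs, by setting 1 NK cell-depleted library against 1 undepleted library in each of 13 immune cell classes. Both libraries came from C57BL/6 mice that carried subcutaneous Ptgs-/- 5555 tumours, a transplanted mouse melanoma line, harvested on day 4. The mice of the NK-depleted library had received anti-NK1.1 (clone PK136) and anti-Asialo GM-1 antibodies, and the label of the undepleted library names no treatment and does not say whether a control antibody was given. The Ptgs deletion, which removes the enzymes of prostaglandin synthesis, is carried by the injected cancer cells of both groups, and these were left out by the sort for live CD45+ cells. Libraries were made on the 10x Genomics platform, and the labels do not say how many animals went into each.

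The comparison held 8001 of the 31617 cells in the 5 annotated libraries of the series, 3834 from the NK-depleted and 4167 from the undepleted tumour. Cells were taken by their library and their cell class in the authors' deposited annotation. All 13 classes other than NK cells had at least 30 cells on each side and were used. The classes are named as the authors name them: Mono Mac, Monocytes 1 and 2, 4 tumour-associated macrophage classes (TAM 1 to 4), 3 conventional dendritic cell classes (cDC1, cDC2 and cDC3), neutrophils, T cells and B cells. With 1 library a side there is no replicate check on any difference below, no p-value is given, and higher or lower rests on the size of the difference.

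NK cells are innate lymphocytes that kill stressed or transformed cells and release interferon-gamma, granzymes and chemokines such as Ccl5 and Xcl1. Interferon-gamma acts on macrophages and dendritic cells and turns on guanylate-binding proteins (Gbp genes), immunity-related GTPases (Igtp, Iigp1), chemokines that attract lymphocytes (Cxcl9, Cxcl10) and antigen presentation. Type I interferons turn on an overlapping set that includes Isg15 and the Ifit genes. In tumours without prostaglandin E2, NK cells and dendritic cells are known to support each other in recruiting T cells.

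The promoters of 5 interferon-regulated genes described below are shown, as examples of the interferon lists whose levels are compared below. The sequences are 90-base windows within 250 bases upstream of the transcription start, from RefSeq on GRCm38.p6, each written on the gene's own strand with capitals marking, on either strand, each pair of GAAA repeats with any 2 bases between them, the core of the interferon-stimulated response element.
Gbp2, chr3:142620564-142620653, plus strand: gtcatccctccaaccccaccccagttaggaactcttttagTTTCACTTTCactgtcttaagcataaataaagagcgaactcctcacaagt
Gbp7, chr3:142530243-142530332, plus strand: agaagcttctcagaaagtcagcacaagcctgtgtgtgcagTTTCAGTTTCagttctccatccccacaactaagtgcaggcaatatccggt
Isg15, chr4:156200841-156200930, minus strand: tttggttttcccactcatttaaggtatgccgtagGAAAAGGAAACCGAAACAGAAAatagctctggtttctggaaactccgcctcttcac
Ifit1, chr19:34640754-34640843, plus strand: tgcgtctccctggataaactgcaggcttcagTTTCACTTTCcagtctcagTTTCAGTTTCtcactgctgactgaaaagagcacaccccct
Cxcl10, chr5:92349050-92349139, minus strand: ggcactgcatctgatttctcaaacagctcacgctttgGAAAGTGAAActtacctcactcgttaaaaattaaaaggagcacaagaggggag
In Isg15 the capitals join 3 overlapping matches. Over 300-base windows from 250 bases upstream to 50 downstream, this motif was found in 10 of the 11 GBP and IRG GTPase genes with a promoter in the table (90.9%) and in 16 of 26 type I interferon-stimulated genes (61.5%), against 4.77% of 4402 genes measured in 6 or more classes and 3.99% of 27025 genes. A match is a description of the letters, not a bound site.

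The NK-depleted library held 3879 annotated cells with 23193693 unique molecular identifiers (UMIs), and the undepleted library 4677 cells with 24254713 UMIs. Median UMIs per cell were 5463 in the NK-depleted and 4562 in the undepleted library. Defining markers were checked in 4 classes: Cd79a had a UMI in 100% of B cells of the NK-depleted and 95.5% of the undepleted library, Xcr1 in 79.6% and 75.8% of cDC1, Fscn1 in 84.4% and 86.2% of cDC3, and Ly6c2 in 72.6% and 65.5% of Monocytes 1. In TAM 1, the shares in the NK-depleted and undepleted library were 0% and 0.215% for Cd79a, 0% and 0% for Xcr1, and 0.414% and 1.07% for Fscn1. Ly6c2 had a UMI in 0% of B cells of both. The T cell class was mixed: Cd3e, a chain of the T cell receptor complex, had a UMI in 43.1% of its cells in the NK-depleted and 51.4% in the undepleted library, and Il1rl1, the receptor for IL-33 that marks type 2 innate lymphoid cells, in 39.4% and 27.1%, against 2.07% and 1.5% of TAM 1 cells, which should lack it. The natural cytotoxicity receptor gene Ncr1 and the granzyme gene Gzma had no UMI in any of the 3879 cells of the NK-depleted library, which allows a share of cells with a UMI of up to 0.0951%, against 446 and 7832 UMIs in the undepleted library. The NK marker Klrb1c still had 15 UMIs in 14 cells of the NK-depleted library, against 903 UMIs in 429 cells of the undepleted one. Intervals and limits in this text cover counting error only. The 2 libraries shared 4 cell barcodes, and all cells with a barcode found in more than 1 library were left out.

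The makeup of the infiltrate differed between the libraries on the side of monocytes and macrophages as well as of NK cells. NK cells made up 1.16% of annotated cells in the NK-depleted library (45 cells) and 10.9% in the undepleted library (510 cells). Their ratio was 0.106 (95% interval 0.0787 to 0.144). Monocytes 1 made up 28.6% of annotated cells in the NK-depleted and 14.9% in the undepleted library, a ratio of 1.92 (95% interval 1.77 to 2.09), and Monocytes 2 made up 11.6% and 5.49%, a ratio of 2.11 (1.82 to 2.44). TAM 1 had a share of 12.5% in the NK-depleted against 19.9% in the undepleted library, a ratio of 0.625 (0.565 to 0.691), and TAM 3 had 7.76% against 10.6%, a ratio of 0.729 (0.636 to 0.835). T cells made up a smaller share with NK depletion, at a ratio of 0.614 (0.490 to 0.770), while cDC1, a class of 54 and 33 cells, made up 1.39% and 0.706%, a ratio of 1.97 (1.28 to 3.04). Mono Mac made up 6.96% of the NK-depleted and 5.20% of the undepleted library, a ratio of 1.34 (1.13 to 1.58). The shares of TAM 2, TAM 4, cDC2 and cDC3 had ratios between 0.935 and 1.12. These intervals hold the sampling of cells from 1 tumour preparation, not the spread between animals.

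For each gene and class, the mean CPM over cells was compared as the difference of log2(mean CPM + 5), NK-depleted minus undepleted. A gene counted as measured in a class when it had a UMI in 10% of cells, averaged over both libraries. Over all 13 classes there were 62178 such gene and class pairs, of which 4728 (7.60%) were past 1.5-fold higher and 3889 (6.25%) past 1.5-fold lower in the NK-depleted library. The share past 1.5-fold was smallest in classes of many cells: it was 1.28% higher and 0.99% lower in TAM 1, with 483 and 932 cells, 1.44% and 1.62% in Monocytes 1, 3.14% and 2.11% in Monocytes 2, 3.34% and 2.38% in Mono Mac, and 3.44% and 2.3% in cDC2. It was 5.46% higher and 4.6% lower in TAM 2, 4.51% and 5.97% in TAM 3, and 6.11% and 4.16% in TAM 4. In the smallest classes it was 10.2% higher and 10.1% lower in T cells, 17.2% and 12.2% in cDC1, 19.3% and 14% in cDC3, 18.5% and 20.3% in neutrophils, and 21.9% and 20.1% in B cells, with 36 and 44 cells. A gene could be under 10% of cells in 1 library and be measured through the other. This held for 846 of 6430 measured genes in cDC1 and 705 of 2663 in B cells, against 282 of 6465 in TAM 1. Few genes moved the same way in many classes. Of 5502 genes measured in 6 or more classes, 14 were past 1.5-fold higher in at least 6 classes and lower in none (0.254%), and 22 were past 1.5-fold lower in at least 6 and higher in none (0.4%).

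**Figure D1:**
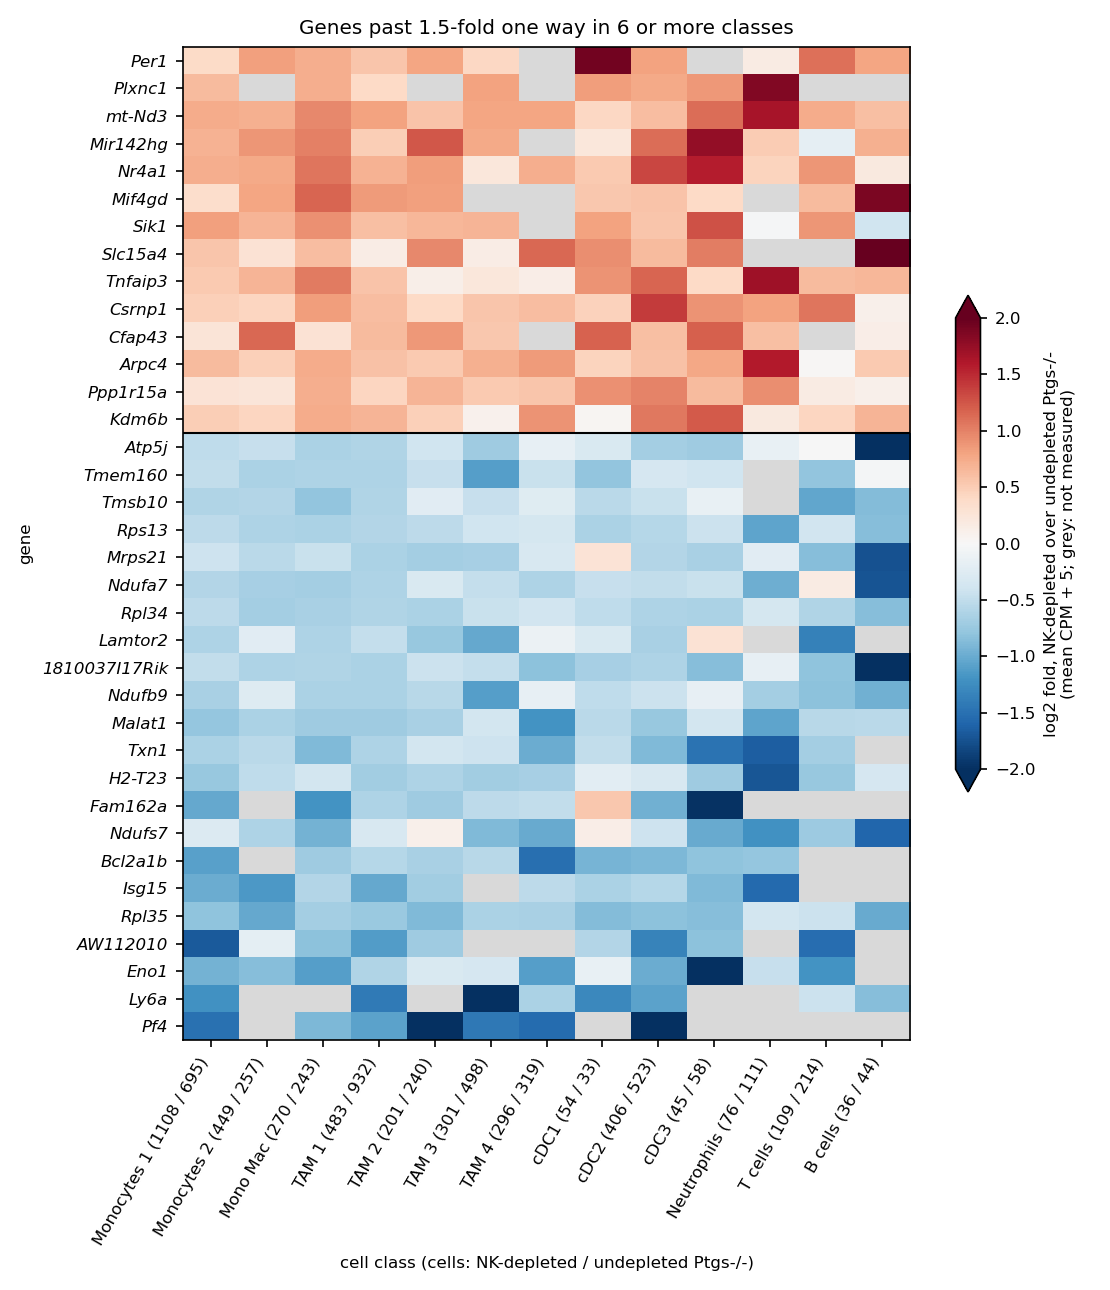
Heat map of the log2 difference in mean CPM (NK-depleted minus undepleted) for the 36 genes past 1.5-fold in the same direction in 6 or more of 13 cell classes; rows are genes, columns are classes, and blank cells are classes where the gene was not measured. Pf4, Ly6a, Isg15 and H2-T23 are lower in every class where they were measured, and Nr4a1 is higher in all 13.

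The gene with the lowest median difference among the 36 was Pf4, which encodes platelet factor 4, a chemokine that resident and tumour macrophages also make. Pf4 was past 1.5-fold lower with NK depletion in all 7 classes where it was measured, at a median of -1.50 on the log2 scale. Its level in TAM 1 was 2036 CPM in the NK-depleted library (7474 UMIs) and 4282 CPM in the undepleted library (26482 UMIs), a UMI ratio of 0.489 (95% interval 0.476 to 0.502). TAM 3 had 1128 and 3034 CPM, TAM 4 had 650 and 1906 CPM, and Monocytes 1 had 337 and 963 CPM in the NK-depleted and undepleted libraries. The difference was largest in cDC2, a class that is not known to make much Pf4, with 24.1 CPM in the NK-depleted and 189 CPM in the undepleted library. Pf4 had a UMI in 6.16% of cDC2 of the NK-depleted and 17.4% of the undepleted library, and it no longer reached the 10% threshold there once cells with a UMI of another lineage's defining gene, such as the complement gene C1qa, were left out. The part that free or macrophage RNA has in the cDC2 value was not tested. TAM 1 cells, the class highest in Pf4, were themselves a smaller share of the NK-depleted library, as given above.

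Ly6a, the gene for the surface protein Sca-1, is induced by interferons and was lower in all 8 classes where it was measured, past 1.5-fold in 7. Monocytes 1 had 419 CPM in the NK-depleted and 975 CPM in the undepleted library, TAM 1 had 44.2 and 127 CPM, and TAM 3 had 19.8 CPM from 26 UMIs and 113 CPM from 209 UMIs. The difference was smallest in T cells, at 396 CPM with NK depletion and 534 CPM without. Isg15, a ubiquitin-like protein that interferons induce, was past 1.5-fold lower in 8 of 10 classes at a median of -0.79. Monocytes 1 had 233 CPM of Isg15 in the NK-depleted and 469 CPM in the undepleted library (1792 and 2176 UMIs, ratio 0.489, interval 0.459 to 0.521), and Monocytes 2 had 164 and 370 CPM. The difference for Isg15 was smallest in TAM 4, at 163 CPM with NK depletion and 236 CPM without. H2-T23, which encodes Qa-1, the nonclassical class I molecule read by the NK cell receptor NKG2A, was below 0 in all 13 classes at a median of -0.66, with 279 CPM in NK-depleted and 477 CPM in undepleted Monocytes 1. AW112010, an interferon-induced transcript, had 35.4 CPM in NK-depleted and 125 CPM in undepleted Monocytes 1 and was past 1.5-fold lower in 7 of 9 classes.

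The other shared lower genes were not of the interferon kind. They held Eno1, the glycolytic enzyme enolase (median -0.90), Bcl2a1b, an anti-apoptotic protein (-0.79), Txn1, the redox protein thioredoxin (-0.65), the nuclear long noncoding RNA Malat1 (-0.65), and small proteins of the mitochondrion and its respiratory complex I such as Ndufs7 (-0.73), Fam162a (-0.72), Ndufb9 (-0.63), Ndufa7 (-0.58), Mrps21 (-0.58) and Atp5j (-0.51). Lamtor2 (-0.61), Tmsb10 (-0.57), Tmem160 (-0.56) and 1810037I17Rik (-0.62) completed the set, apart from 3 ribosomal protein genes. Malat1 was lower in all 13 classes, with 12550 CPM in NK-depleted and 21388 CPM in undepleted Monocytes 1 and with 7574 and 17378 CPM in TAM 4. In cDC3, Eno1 had 5.66 CPM from 2 UMIs in the NK-depleted library and 119 CPM from 53 UMIs in the undepleted one, and in Mono Mac it had 166 and 362 CPM. Reads of Eno1, Bcl2a1b, Txn1 and the ribosomal genes can be shared with near-identical copies, so these values are uncertain in how they were assigned. The ribosomal gene Rpl35 and the mitochondrial gene mt-Nd3 lie outside the rule for named genes and are given because of their values: Rpl35 was past 1.5-fold lower in 11 of 13 classes (median -0.80), and mt-Nd3 was past 1.5-fold higher in 11 of 13 (median 0.74).

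Transcript length moved with the shared lower genes. Their median transcript length was 816 nucleotides and 15 of the 22 (68.2%) were under 1000, against a median of 3244 nucleotides and 6.55% under 1000 over the genes measured in 6 or more classes. The 14 shared higher genes had a median of 2882.5 nucleotides. Across all measured genes, those under 600 nucleotides had median log2 differences between -0.31 in TAM 2 and -0.12 in TAM 4, and those of 4000 nucleotides or more between 0.00 and 0.15. Taken relative to genes of like length, 10 of the 22 shared lower genes kept that call, among them Pf4, AW112010, H2-T23 and Malat1, as did 10 of the 14 shared higher genes. Isg15 and Ly6a did not meet the sharing rule then, with medians of -0.59 for Isg15 and -0.95 for Ly6a, and the list medians were -0.52 for GBP and IRG GTPases and -0.54 for type I interferon-stimulated genes, against -0.44 and -0.55 without regard to length. The origin of this length pattern was not tested, and a library preparation difference and the depletion cannot be told apart with 1 library a side.

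**Figure D2:**
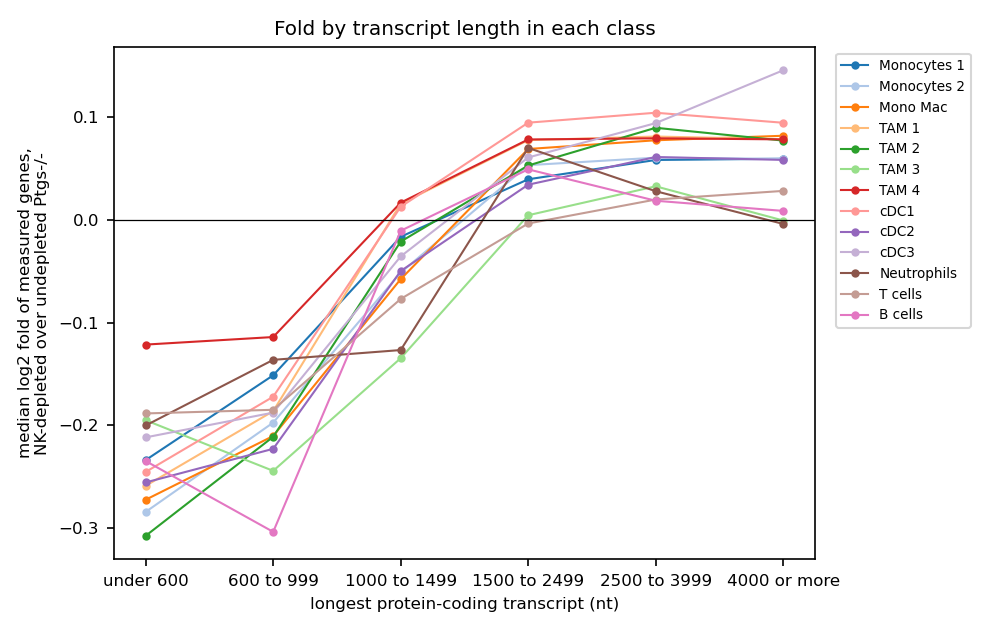
Median log2 difference in mean CPM (NK-depleted minus undepleted) of measured genes by transcript length in nucleotides, 1 line per cell class. Genes under 600 nucleotides lie at -0.31 to -0.12 and genes of 4000 nucleotides or more at 0.00 to 0.15.

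The 14 genes that were higher with NK depletion in many classes included several immediate-early and feedback genes. Nr4a1, a nuclear receptor that cells induce within minutes of stimulation, was higher in all 13 classes, with a counting interval that left out a ratio of 1 in each, and past 1.5-fold in 9. Its level was 1206 CPM in NK-depleted and 473 CPM in undepleted cDC2 (3572 and 1863 UMIs, ratio 2.55, interval 2.41 to 2.7), 828 and 392 CPM in Mono Mac, and 924 and 559 CPM in Monocytes 1. In T cells it was 1498 CPM with NK depletion and 812 CPM without. The smallest difference was in B cells, at 1257 CPM with NK depletion and 990 CPM without.

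Sik1, a salt-inducible kinase that cAMP induces, was past 1.5-fold higher in 9 of 12 classes, with 123 CPM in NK-depleted and 67.2 CPM in undepleted Monocytes 1 and -0.41 on the log2 scale in B cells. Csrnp1, a stimulus-induced nuclear protein, was higher in 13 of 13 classes and past 1.5-fold in 7, with 537 CPM in NK-depleted and 200 CPM in undepleted cDC2, and 351 and 166 CPM in T cells. Tnfaip3, the NF-kB feedback inhibitor A20, had 1382 CPM in NK-depleted and 424 CPM in undepleted neutrophils, and 448 and 198 CPM in cDC2. Per1, a clock gene that cAMP also induces, had 198 CPM in NK-depleted and 89.4 CPM in undepleted T cells, and Ppp1r15a, a phosphatase subunit of the stress response, had 329 and 162 CPM in cDC2. Kdm6b, a histone demethylase, had 615 CPM in NK-depleted and 292 CPM in undepleted cDC2, and 584 and 246 CPM in cDC3. The remaining shared higher genes were Arpc4 (median 0.59), Cfap43 (0.61), Slc15a4 (0.63), Mif4gd (0.71), Mir142hg (0.73) and Plxnc1 (0.77).

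The lists of genes by function placed these single genes in context. Each list is described by the median of its measured members in each class and by how many gene and class pairs were past 1.5-fold, to be read against the 7.60% higher and 6.25% lower over all pairs. Of 55 pairs in the GBP and IRG GTPase list, 1 was higher and 21 were lower. Of 220 pairs of type I interferon-stimulated genes, 10 were higher and 62 lower, with a median over classes of -0.55 and 11 of 13 classes below 0. Other interferon-gamma response genes had 9 higher and 43 lower of 210 pairs (median over classes -0.18). The 2 antigen presentation lists lay closer to 0: class I had 11 higher and 21 lower of 183 pairs, and class II had 7 higher and 15 lower of 109, each at a median of -0.10.

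**Figure D3:**
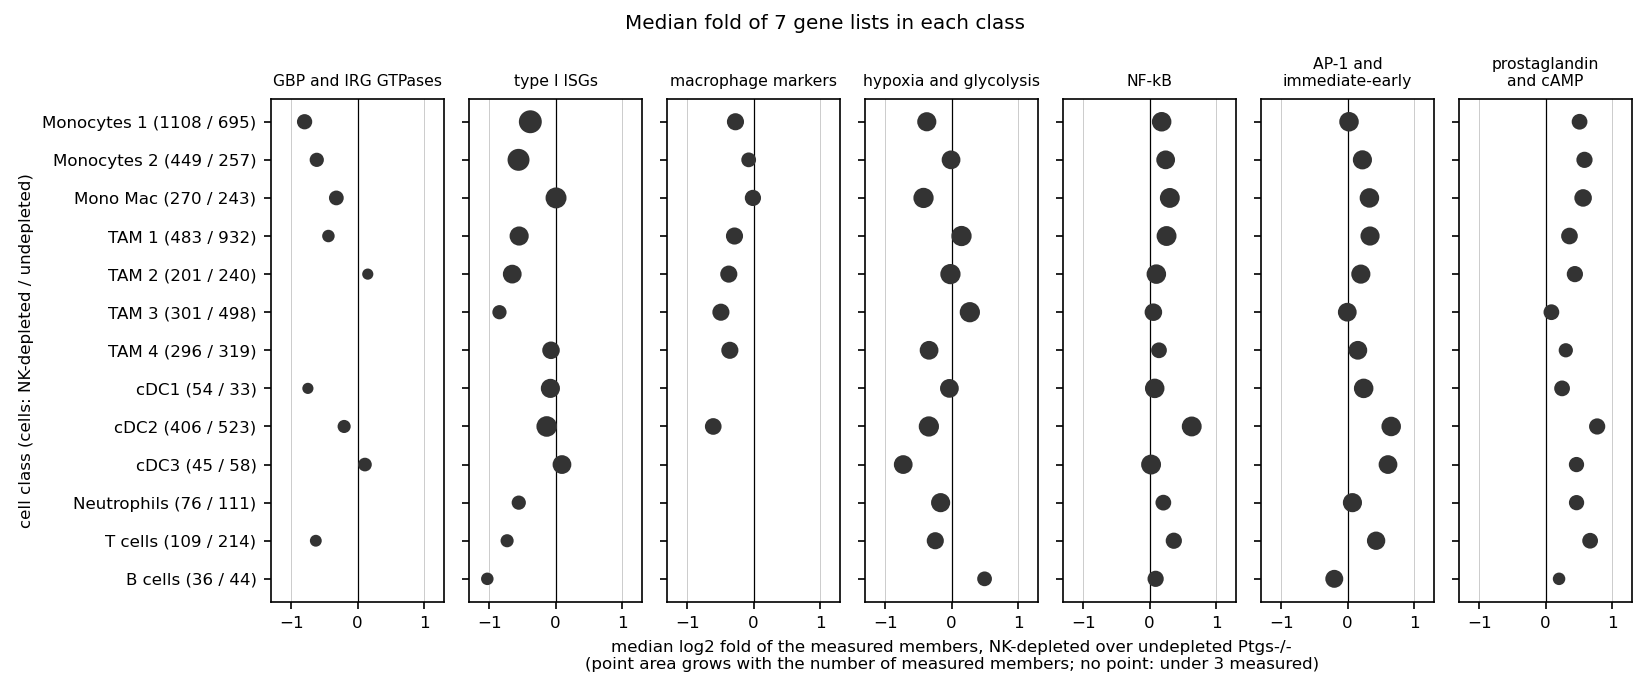
Median log2 difference in mean CPM (NK-depleted minus undepleted) of the measured members of 7 gene lists in each of 13 cell classes; each point is 1 class. The prostaglandin and cAMP list and the NF-kB list lie above 0 in all 13 classes, and type I interferon-stimulated genes lie below 0 in 11 of 13.

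The GBP and IRG list had its lowest median, -0.80, in Monocytes 1. There, 7 of 10 measured GBP and IRG genes were past 1.5-fold lower, where 1.62% of all genes were. Gbp2, a guanylate-binding protein that restricts vacuolar pathogens, had 41.8 CPM in NK-depleted and 126 CPM in undepleted Monocytes 1 (319 and 570 UMIs, ratio 0.332, interval 0.289 to 0.382). Its relatives Gbp4 and Gbp7 had 9.39 and 48.0 CPM, and 99.3 and 192 CPM, in NK-depleted and undepleted Monocytes 1. Iigp1, an immunity-related GTPase, had 9.74 CPM from 92 UMIs in the NK-depleted library and 63.1 CPM from 322 UMIs in the undepleted one. Gbp7 was below 0 in all 8 classes where it was measured, and Igtp in all 6.

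Gbp2 was above 0 but within 1.5-fold in cDC3, with 283 CPM in the NK-depleted and 206 CPM in the undepleted library. The list's median there was 0.11 over 7 measured genes, of which 4 reached the detection threshold in only 1 library. TAM 2 also had a list median above 0, at 0.15 over 3 measured genes, of which 1 reached the threshold in only 1 library. In T cells the list's median was -0.63 over 4 measured genes. In cDC1 it was -0.75 over 3, of which 2 reached the detection threshold in only 1 library. The cDC1 median therefore depends on the filter.

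Monocytes 2 had 13 of 27 type I interferon-stimulated genes past 1.5-fold lower, against 2.11% of all genes in that class. Ifit1, an RNA-binding antiviral protein, had 46.1 CPM in NK-depleted and 149 CPM in undepleted Monocytes 2, and its neighbour Ifit3 had 32.7 and 84.3 CPM. TAM 3 had 7 of 8 of the list's measured genes lower (5.97% of all genes), TAM 2 had 10 of 18 (4.6%) and TAM 1 had 7 of 19 (0.99%). T cells had 3 of 6 lower (10.1%) at a list median of -0.73, and neutrophils had 3 of 8 (20.3%) at -0.55. Monocytes 1 had 6 of 30 lower (1.62%) at -0.38. Differences were smaller in 5 classes: Mono Mac lay at a list median of 0.01, cDC3 at 0.10, TAM 4 at -0.07, cDC1 at -0.08 and cDC2 at -0.13. In cDC3, Irf7, the amplifier of type I interferon, had 105 CPM from 37 UMIs with NK depletion and 31.6 CPM from 16 UMIs without, and the antiviral GTPase Mx1 had 236 and 109 CPM. In B cells, 4 of 5 measured genes were lower (20.1% of all genes), led by Ifi27l2a with 107 CPM from 8 UMIs in the NK-depleted and 996 CPM from 77 UMIs in the undepleted library.

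Among chemokines, Cxcl10, which attracts T and NK cells through CXCR3, had 105 CPM in NK-depleted and 312 CPM in undepleted Monocytes 1 (754 and 1441 UMIs) and 57.5 and 263 CPM in Monocytes 2. It was not lower in every class: Mono Mac had 64.8 CPM with NK depletion and 47.0 CPM without, and cDC3 had 176 and 40.3 CPM from 20 and 13 UMIs, with a UMI ratio of 2.09 whose interval (0.987 to 4.56) includes 1. Ccl8 was measured in 1 class, Monocytes 1, where it had 104 CPM in the NK-depleted and 508 CPM in the undepleted library (1130 and 3046 UMIs, ratio 0.22, interval 0.206 to 0.236). Ccl12, a related chemokine, had 101 CPM with NK depletion and 261 CPM without in the same class. Ccl2, the main attractant of monocytes, stood apart from these: it was above 0 in 8 of 9 classes, with 2072 CPM in NK-depleted and 1652 CPM in undepleted Monocytes 1. Over the list of monocyte chemokines and receptors, 7 of 89 pairs were higher and 6 lower. Cxcl9 did not reach the detection threshold in any class.

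**Figure D4:**
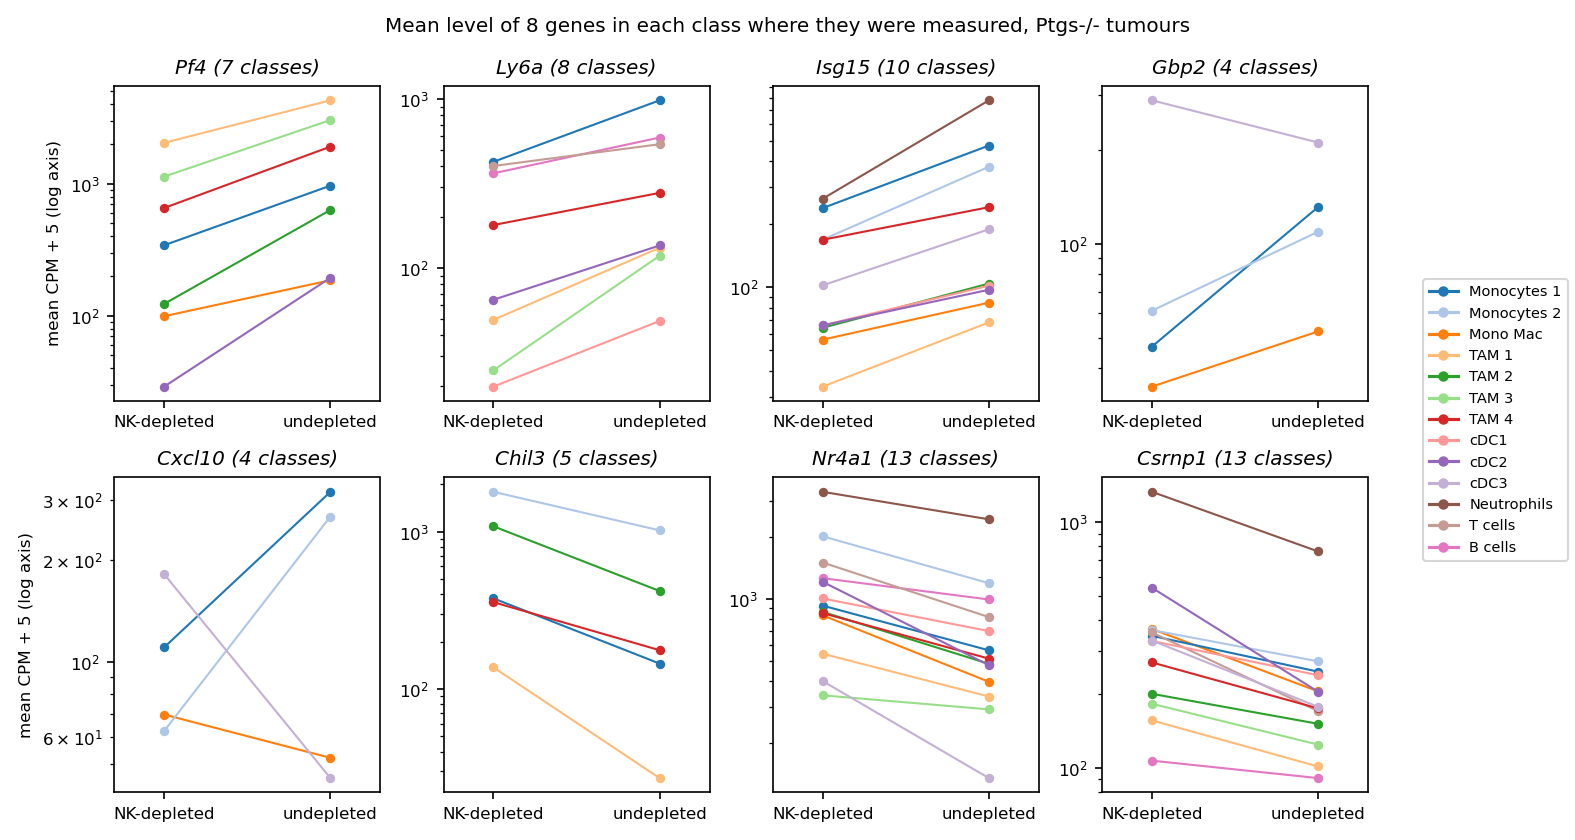
Mean CPM per cell class of 8 genes, with the NK-depleted library drawn left of the undepleted library in each class; 1 library a side, so no error bar is drawn. Pf4, Ly6a, Isg15, Gbp2 and Cxcl10 are lower and Chil3, Nr4a1 and Csrnp1 higher with NK depletion in Monocytes 1.

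The prostaglandin and cAMP response list was above 0 in all 13 classes at a median over classes of 0.46, and 45 of its 141 pairs were past 1.5-fold higher and 4 lower. Mitochondrial transcripts, which rise in stressed or damaged cells, were also above 0 in all 13 classes, at a median over classes of 0.20 with 24 of 158 pairs higher and 1 lower, and their part in the list's values was not tested. The tumour cells of both libraries lack Ptgs, so the genotype does not differ along this axis. The list overlaps the immediate-early genes, and Nr4a1 is in it. NF-kB subunit and feedback genes were likewise above 0 in all 13 classes (median over classes 0.18). AP-1 and immediate-early genes were above 0 in 11 of 13 (0.22). A median above 0 in every class was thus not particular to the prostaglandin and cAMP list. Pde4b, the phosphodiesterase that degrades cAMP, was past 1.5-fold higher in 7 of 12 classes and lower in B cells, with 157 CPM in NK-depleted and 91.6 CPM in undepleted cDC2 and 74.3 and 41.7 CPM in TAM 1. Dusp1, a phosphatase that ends MAP kinase signalling, was higher in all 13 classes and past 1.5-fold in 5, with 4845 CPM in NK-depleted and 3247 CPM in undepleted Monocytes 1. Areg, an epidermal growth factor family ligand, had 573 CPM in NK-depleted and 259 CPM in undepleted T cells. By class, cDC2 had 8 of 12 measured list genes higher (3.44% of all genes), T cells had 6 of 11 (10.2%), and TAM 3 had 0 of 11 (4.51%). In the T cell class, markers of type 2 innate lymphoid cells, Areg among them, moved with these values: 3 of 8 measured markers were past 1.5-fold higher and 0 lower, at a median of 0.45, and their part in the T cell values was not tested.

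In cDC2, where 3.44% of all genes were past 1.5-fold higher, 14 of 20 AP-1 and immediate-early genes and 12 of 21 NF-kB subunit and feedback genes were. In cDC3, 19.3% of all genes were past 1.5-fold higher and 14% lower. There, 9 of 18 AP-1 genes were higher and 0 lower, while 3 of 21 NF-kB genes were higher and 5 lower. Over all classes, the AP-1 list had 40 pairs higher and 11 lower of 243, and the NF-kB list had 39 higher and 22 lower of 223. Egr3, an early growth response factor, had 219 CPM in NK-depleted and 77.4 CPM in undepleted cDC2 (661 and 299 UMIs). Cd83, a maturation marker of dendritic cells, had 937 CPM with NK depletion and 379 CPM without, Ptgs2, the inducible enzyme of prostaglandin synthesis in the host cells themselves, had 467 and 208 CPM, and Dusp2 had 181 and 73.1 CPM. Cd83 was above 0 in all 11 classes where it was measured. The same class had lower levels of macrophage genes: 7 of 13 macrophage markers were past 1.5-fold lower in cDC2 (2.3% of all genes), among them the complement gene C1qb with 242 CPM in the NK-depleted and 438 CPM in the undepleted library. Arg1, the arginase of alternatively activated macrophages, had 45.2 CPM in NK-depleted and 161 CPM in undepleted cDC2, and the lipid carrier Apoe had 121 and 323 CPM. Markers of cDC2 went the other way in this class: 4 of 14 were past 1.5-fold higher and 0 lower, at a median of 0.39. The part that a different mix of cells within the class had in the cDC2 values above was not tested. No gene met the rule for a change in cDC2 alone.

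Macrophage markers were below 0 in all 8 classes with 3 or more measured members (median over classes -0.32), with 24 of 104 pairs lower and 2 higher. Ms4a7, a membrane protein of macrophages, had 640 CPM in NK-depleted and 909 CPM in undepleted TAM 1, and 288 and 539 CPM in TAM 3. Trem2, a lipid-sensing receptor of tumour macrophages, was below 0 in all 8 classes, with 302 CPM in NK-depleted and 400 CPM in undepleted TAM 1. The monocyte marker list lay near 0, at a median over classes of 0.11 with 9 of 78 pairs higher and 7 lower. Chil3, a chitinase-like protein made by monocytes, had 371 CPM in NK-depleted and 140 CPM in undepleted Monocytes 1 (2470 and 544 UMIs, ratio 2.7, interval 2.46 to 2.96), 132 and 22.1 CPM in TAM 1 (398 and 132 UMIs, ratio 5.22, interval 4.28 to 6.41) and 1074 and 414 CPM in TAM 2. Adgre4, an adhesion receptor of monocytes, had 56.7 CPM in NK-depleted and 18.6 CPM in undepleted Monocytes 1. A class is a range of cells cut by the authors' clustering, and the monocyte shares were themselves higher in the NK-depleted library, so a shift of cells within a class and a change per cell cannot be told apart.

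Alternative activation genes had 10 pairs higher and 22 lower of 103 over classes, with lower levels of Arg1 in Mono Mac (772 CPM with NK depletion and 1661 CPM without) and TAM 4 (516 and 1092 CPM), and with a smaller difference in TAM 1 (1571 and 1707 CPM). Mgl2, a lectin of alternatively activated cells, met the rule for 1 class, with 63.0 CPM in NK-depleted and 165 CPM in undepleted Monocytes 1. Lipid and lysosome genes had 8 pairs higher and 28 lower of 219, with Apoe at 1352 CPM in NK-depleted and 2835 CPM in undepleted TAM 3. The inflammatory cytokine Il1b was lower in TAM 3, at 491 CPM with NK depletion and 1045 CPM without, and in neutrophils, at 13302 and 20736 CPM. In cDC2 it was above 0 but within 1.5-fold, at 2422 and 1774 CPM.

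Genes of a single class were defined as past 2-fold there, with a counting interval that left out 1, and within 1.5-fold in every other class where they were measured. Of 6446 genes measured in 4 or more classes, 164 (2.54%) met this rule higher and 108 (1.68%) lower. Most lay in the smallest classes: 71 in cDC1, 69 in cDC3, 40 in neutrophils, 38 in B cells and 29 in T cells, where folds of 1.5 were also most frequent over all genes. TAM 1 and cDC2 had none. Mono Mac had 1, the adhesion molecule Icam1, with 210 CPM in the NK-depleted and 98.1 CPM in the undepleted library (631 and 262 UMIs). Monocytes 1 had Mgl2 and Nt5dc2 (log2 difference 1.01), and Monocytes 2 had Rbm12 (1.20) and Rnf214 (-1.06).

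T cells held the lowest single difference of any named gene. Ccl5, the chemokine of activated T and NK cells, had 22.3 CPM from 5 UMIs in the NK-depleted and 686 CPM from 295 UMIs in the undepleted library, a log2 difference of -4.66 and a UMI ratio of 0.0303 (interval 0.00978 to 0.0716). Nkg7, a granule protein of cytotoxic lymphocytes, had 18.5 CPM from 8 UMIs with NK depletion and 185 CPM from 78 UMIs without. Both genes were under 10% of NK-depleted T cells and counted as measured only through the undepleted library, where they are high. The rank of Ccl5 therefore depends on the filter. Higher genes included Ccr7, the lymph node homing receptor, with 362 CPM with NK depletion and 73.3 CPM without (96 and 32 UMIs), Actn1, an actin crosslinker, with 170 and 18.6 CPM (40 and 6 UMIs), and Nsg2, with 151 and 22.5 CPM (36 and 10 UMIs). Each of these was under 10% of undepleted T cells and counted as measured only through the NK-depleted library. Of 16 measured genes in the list named T cell activation and effector genes, 6 were past 1.5-fold higher and 1 was lower in this class. The list median was 0.48, but the list also holds genes of naive and type 2 lymphocytes, so this median is not a measure of activation. The higher ones included Areg, the type 2 lymphocyte factor Gata3, Il1rl1, and Lef1 and Tcf7, which mark naive T cells, and the lower one was Tnfrsf9, a co-stimulatory receptor. Ccl5 in cDC3, a class known to make it without NK cells, was at 4425 CPM in the NK-depleted and 5474 CPM in the undepleted library.

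To compare shares of T cells at equal depth, each cell was thinned to 2000 UMIs, which kept 72 cells of the NK-depleted and 119 of the undepleted library. Nkg7 then had a UMI in 4.17% of NK-depleted and 15.1% of undepleted T cells (3.67% and 18.2% before thinning), and Ccl5 in 2.78% and 14.3% (3.67% and 20.6%). Ccr7 had a UMI in 22.2% of thinned NK-depleted and 6.72% of thinned undepleted cells (25.7% and 6.07% before), and Satb1, a chromatin organiser of naive T cells, in 43.1% and 22.7% (48.6% and 22%). Bach2, a repressor of effector differentiation, had one in 27.8% of NK-depleted and 3.36% of undepleted cells (32.1% and 7.01% before). TAM 1, a macrophage class, is set beside these values, although whether it makes none of these genes itself was not tested. Its thinned shares in the NK-depleted and undepleted library were 0% and 0.86% for Nkg7, 0.41% and 1.61% for Ccl5, 0.41% and 0.32% for Ccr7, 0.21% and 0.75% for Satb1, and 3.93% and 3.86% for Bach2, at median depths before thinning of 6869 and 6172.5 UMIs. The Bach2 share of undepleted T cells is thus near that of TAM 1. Foxp3, of regulatory T cells, had a UMI in 5.56% of thinned T cells of the NK-depleted and 13.4% of the undepleted library (10.1% and 14.0% before thinning), and Cd8a, of cytotoxic T cells, in 2.78% and 5.04% (2.75% and 5.14%).

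**Figure D5:**
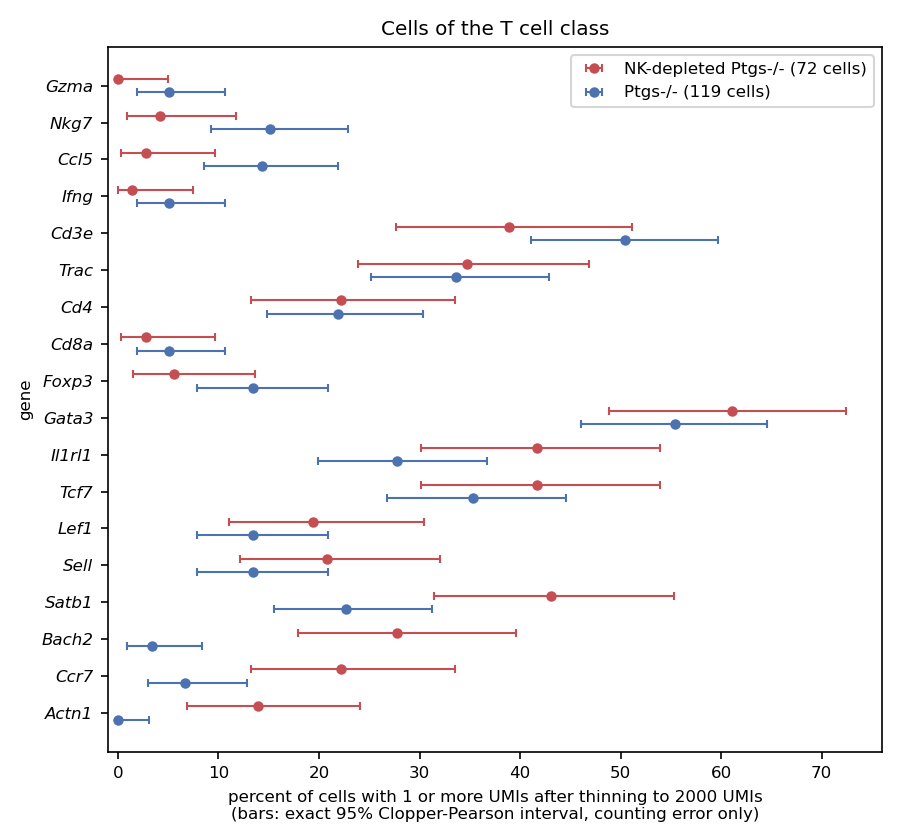
Percent of cells in the T cell class with a UMI of each gene after thinning to 2000 UMIs, with the NK-depleted library (72 cells) above the undepleted library (119 cells); bars are 95% exact binomial intervals. Nkg7 and Ccl5 lie lower, and Ccr7, Satb1 and Bach2 higher, in the NK-depleted library.

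Further genes were named in single classes. In cDC3, Ccl17, which attracts CCR4+ T cells, had 567 CPM in the NK-depleted and 1393 CPM in the undepleted library (191 and 773 UMIs), while Ccl22, which binds the same receptor, had 2985 and 3309 CPM. Il12b, a subunit of IL-12, had 543 CPM in NK-depleted and 395 CPM in undepleted cDC3. In neutrophils, Retnlg, a resistin-like protein of mature neutrophils, had 2922 CPM with NK depletion and 700 CPM without (156 and 67 UMIs). Siglecf, which marks eosinophils and a subset of tumour neutrophils, had 336 CPM from 19 UMIs with NK depletion and 60.9 CPM from 10 UMIs without. In TAM 4, Clec4d, a C-type lectin receptor, had 56.0 CPM with NK depletion and 233 CPM without (28 and 87 UMIs), and in TAM 2, Ccnd2, a cyclin, had a log2 difference of -1.80.

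RNA of NK marker genes outside NK cells also differed between the libraries. Gzma had UMIs in all 13 classes of the undepleted library, with 154 in Monocytes 1, 167 in cDC2, 89 in T cells and 88 in TAM 1, and had 0 in every class of the NK-depleted one. The summed level of the 17 NK marker genes was 40.9 CPM in NK-depleted and 189 CPM in undepleted Monocytes 1, 13.1 and 93.9 CPM in TAM 1, and 673 and 2102 CPM in T cells. It was not lower in cDC1, at 176 CPM with NK depletion and 143 CPM without. The sum includes genes such as Ccl5 that other classes make. In NK-depleted cDC3, Ccl5 alone was 4425 CPM of a sum of 4794 CPM. The part of NK cell RNA in these sums was not tested. If every Gzma UMI outside NK cells came with the RNA of NK-annotated cells, that RNA would supply at most 4.93% of the UMIs of any shared lower gene in any class where that gene was measured, except for AW112010, with a median of 17.2% and a highest value of 33.5% over such classes. For Pf4, Isg15 and Ly6a the highest values in measured classes were 0.0648%, 0.422% and 0.257%. In T cells it would supply 28.5% of the undepleted library's Ccl5 UMIs and 28.7% of its Nkg7 UMIs.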

How the data were processed

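The cell by gene table was deposited as log2(CPM + 1) per cell, and per the submitters' processing notes Cell Ranger 3.0.2, Partek and mm10 were used. Whole UMIs were recovered from it for 99.9393% of values (tolerance 0.1), and 18 symbols with parts of a UMI were not named. Library and cell class came from the authors' deposited annotation; 18 cells whose barcode occurs in more than 1 library were left out. From the deposited values, mean CPM per class was computed over cells and compared as log2(mean CPM + 5), centred on the median of measured genes only where this was over 0.1 from 0 (B cells, 0.141). UMI ratios have exact conditional binomial intervals and shares Clopper-Pearson intervals. No doublet caller was run and free RNA was not subtracted. Genes named are all shared genes, up to 3 genes of a single class in each direction, the highest and lowest of each class, the members of each list with the largest median difference, and a fixed set; those named beyond this rule were chosen after their values were seen. Members and 39 lists were chosen with earlier results of these data known. The procedure was tested on simulated data. Promoters come from RefSeq. Python 3.11.15, numpy 2.4.6, pandas 2.3.3, scipy 1.17.1 and matplotlib 3.10.9 were used.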

Additional observations from a re-analysis of the deposited data

Results flagged for a closer look

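Dusp2, a phosphatase that ends MAP kinase signalling, stood out because it lay past 2-fold in opposite directions in 2 classes. Its log2 difference was 1.25 in cDC2, from 549 UMIs in the NK-depleted and 288 in the undepleted library (ratio 2.54, interval 2.2 to 2.94). In T cells it was -1.15, from 20 and 77 UMIs (ratio 0.465, interval 0.269 to 0.768). The gap of 2.40 between the classes was not tested, since each side is 1 library. If Gzma traces NK cell RNA, that RNA would supply 10.8% of the undepleted T cells' Dusp2 UMIs.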

How the results depend on the processing

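No paired analysis was possible because each side is 1 library. Direction was checked for the medians of some of the lists, the medians of the 36 shared genes, and the highest and lowest genes of each class. Of these, none past 1.5-fold changed direction under an alternative where it was still measured. Other gene and class pairs past 1.5-fold were not checked for direction. Of the 36 shared genes, 6 met the sharing rule under all 15 alternatives that could change it: Nr4a1, mt-Nd3, Malat1, Txn1, Rpl35 and H2-T23. The counts depended on the thresholds, and the cause of each change was not tested. A pseudocount of 1 CPM gave 22 shared higher genes, and 20 CPM gave 9 higher and 14 lower, with 2988 pairs higher and 2454 lower. Means of log2(CPM + 1) per cell gave 6144 pairs lower, 118 shared genes higher and 137 lower, and medians of 0.48 for AP-1 and immediate-early genes and -0.55 for macrophage markers. Genes in 5% or more of cells gave 7960 pairs higher and 7152 lower, with 30 and 39 shared. Genes in 20% or more gave 2249 and 1637 pairs, 9 and 11 shared, 58 lower genes of a single class and a type I interferon median of -0.30. Thinning to 2000 UMIs, with 11 classes left, gave 2992 and 2352 pairs, and 79 and 56 genes of a single class. Of the shared genes, thinning kept 5 of 14 higher and 13 of 22 lower, and lost AW112010, Ly6a (median -1.01) and Isg15 (-0.87), with fewer classes measured; the Pf4 difference in TAM 4 was then -0.60. Sharing in 8 or more classes gave 5 and 10 genes, and 1.3-fold in 8 or more gave 41 and 67. In the 9 classes with 100 or more cells on each side, an alternative chosen after seeing the data, as was that by length, there were 1739 and 1511 pairs, 6 and 10 shared genes, and 58 and 66 of a single class. With cells of 500 or more genes only, the neutrophil share had a ratio of 0.596. With NK cells out of the denominator, the share ratio was 1.73 for Monocytes 1 and 0.563 for TAM 1. Depth limits neutrophils, B cells and TAM 4 most, with median UMIs of 965.5, 1670.5 and 1623.5 in the NK-depleted library.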

Other observations

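Hypoxia and glycolysis genes differed by class. In Mono Mac all 22 measured members were below 0, and in cDC3 11 of 18 were past 1.5-fold lower, where 14% of all genes were. The mitochondrial cell death gene Bnip3 had 9.48 CPM from 3 UMIs in the NK-depleted and 39.1 CPM from 19 UMIs in the undepleted cDC3. TAM 3 went the other way at a list median of 0.27, with Bnip3 at 1260.2 CPM with NK depletion and 940.4 CPM without. Cell cycle genes had 8 pairs higher and 15 lower of 95 over classes. In cDC1, 9 of 19 members were past 1.5-fold lower (12.2% of all genes) and 2 higher, while in cDC3 all 7 measured members were above 0 and 3 were past 1.5-fold higher (19.3% of all genes). The proliferation marker Mki67 had 69.1 CPM in NK-depleted and 173 CPM in undepleted cDC1 (43 and 49 UMIs), and 35.1 and 83.6 CPM in cDC2 (146 and 454 UMIs).

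The undepleted Ptgs+/+ library of the same tumour model, from 3262 cells, 226 of them Monocytes 1, gives a further set of levels without a test. In Monocytes 1, Gbp2 was at 41.8 CPM in the NK-depleted Ptgs-/-, 126 CPM in the undepleted Ptgs-/- and 49.6 CPM in the Ptgs+/+ library. Ccl8 was at 104 CPM in the NK-depleted Ptgs-/-, 508 CPM in the undepleted Ptgs-/- and 133 CPM in the Ptgs+/+ library, and Iigp1 was at 9.74, 63.1 and 3.17 CPM. Each of these genes was highest in the undepleted Ptgs-/- library. Pf4 was instead highest in Ptgs+/+ Monocytes 1, at 2073 CPM, against 337 CPM in NK-depleted Ptgs-/- and 963 CPM in undepleted Ptgs-/- Monocytes 1. The thrombospondin gene Thbs1 was at 790, 460 and 3803 CPM in the same 3 libraries.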
